A study of Homo sapiens with 5 samples.

Results

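The genes of the hypoxia-inducible factor (HIF) subunits and of the enzymes that sense oxygen for them were examined for Nrf2 and HIF1α enrichment peaks. The list held 10 of the 20176 protein-coding gene records of the annotation. It comprised the subunit genes HIF1A, EPAS1, HIF3A, ARNT and ARNT2, the hydroxylase genes EGLN1, EGLN2, EGLN3 and HIF1AN, and VHL. The genes were named by their role, and a peak was assigned to a gene when it overlapped the gene or its 50 kb flanks on hg19. In all, 40 of the 29781 deposited peaks were assigned, and they occupied 27 separate positions.

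The peaks came from ChIP-seq, which sequences the DNA recovered with an antibody, in BEAS-2B, an immortalized line of human bronchial epithelial cells for which the labels name no genetic change. All cells were starved of serum overnight. They were then left without arsenic (control) or given inorganic trivalent arsenic (iAs) at 1 μM for 6 h. There was 1 library per antibody and condition, so no difference below has a replicate check and no p-value is given.

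HIF is a pair of proteins, an α subunit (HIF1A, EPAS1 or HIF3A) and a β subunit (ARNT or ARNT2). In well-oxygenated cells the prolyl hydroxylases EGLN1, EGLN2 and EGLN3 modify the α subunits, VHL recognises the modified protein for a ubiquitin ligase, and the α subunit is degraded. HIF1AN hydroxylates an asparagine of the α subunit and blocks its contact with coactivators. When oxygen falls these steps slow, HIF accumulates and binds DNA at ACGTG or GCGTG, and EGLN1 and EGLN3 are well-known genes that it raises, which makes the pathway a feedback loop. Nrf2 is the main regulator of the antioxidant response and binds, with a small MAF partner, the antioxidant response element TGANNNNGC.

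The lists held 3204 (Nrf2, control), 7743 (Nrf2, iAs), 6008 (HIF1α, control) and 12826 (HIF1α, iAs) peaks, given as intervals without heights, and the read depth behind them is unknown. A gene without a peak is therefore one at which no peak was called. In the HIF1α lists 48.7% (control) and 72.6% (iAs) of all peaks had their centre within 1 kb of a protein-coding start site, against 12.0% and 11.9% in the Nrf2 lists. TGACTCAGC, a 9-letter form of the antioxidant response element, stood within 100 bp of the centre of 23.8% (control) and 15.6% (iAs) of all Nrf2 peaks and of 2.06% and 0.429% of all HIF1α peaks.

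With iAs, HIF1α peaks were called at 8 of the 10 genes and Nrf2 peaks at 5. Nrf2 had peaks in control cells at HIF1A, EPAS1, VHL and EGLN3, which is 4 genes where 20.0% of all protein-coding genes had one, and with iAs also at ARNT2, where 35.0% of all genes had one. HIF1α had peaks in control cells at HIF1A, EPAS1, HIF1AN, EGLN1 and EGLN3, which is 5 genes against 45.5% of all genes. In the HIF1α list with iAs, ARNT, VHL and EGLN2 joined these genes, against 68.6% of all genes. HIF1A, EPAS1, VHL and EGLN3 had peaks of both factors with iAs, a pattern shared by 29.5% of all genes. HIF3A had no peak in any list, like 24.4% of all genes.

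With 10 chosen genes and 1 library per list, none of these counts was tested against the background. Longer genes are searched over a longer span, and gene length was not matched. The listed gene records measured from 9.44 kb (EGLN2) to 539 kb (EGLN3), against a median of 27.2 kb over all protein-coding genes. The peak lists also differ in length. Among the 3204 widest peaks of each list, the length of the shortest list, 4 (Nrf2, control), 3 (Nrf2, iAs), 1 (HIF1α, control) and 3 (HIF1α, iAs) of the genes kept a peak, where 20.0%, 20.4%, 31.5% and 33.9% of all genes did.

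**Figure D1:**
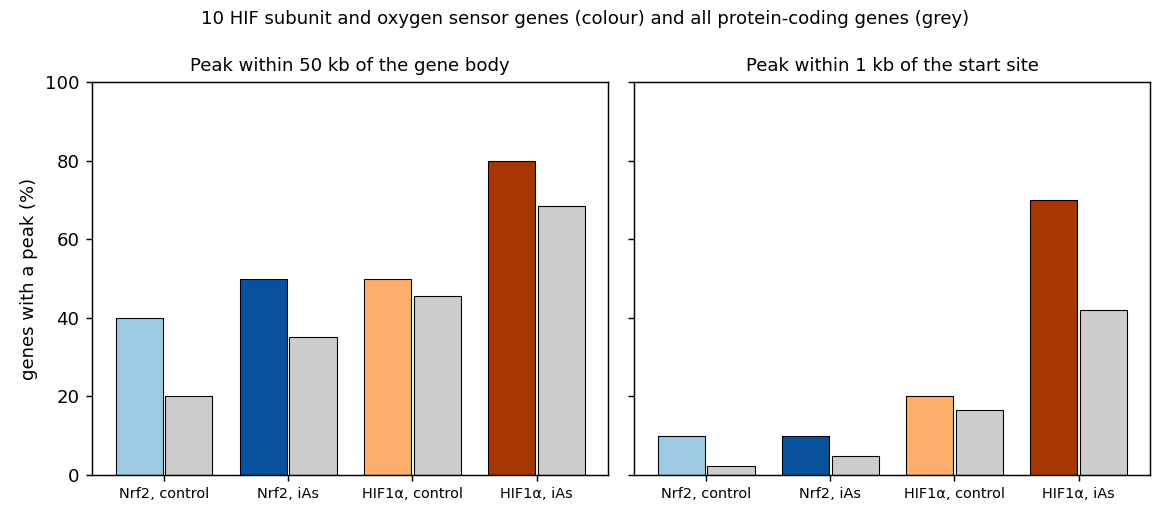
Percent of genes with a peak (y axis) in each of the 4 libraries (x axis), for a peak inside a gene or at most 50 kb from it (left) and for a peak centre within 1 kb of the start site (right). Coloured bars are the 10 HIF subunit and oxygen sensor genes and grey bars all 20176 protein-coding genes; with 1 library per bar there is no error bar. HIF1α with iAs stands highest in both panels, with 8 of the 10 genes on the left and 7 of the 10 on the right.

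At start sites the factors parted, as they did over the whole lists. With iAs, 72.6% of all HIF1α peaks and 11.9% of all Nrf2 peaks lay within 1 kb of a protein-coding start site. Nrf2 had a peak centre within 1 kb of the start site of EGLN3 alone, in control cells (2.23% of all genes) and with iAs (4.91%). HIF1α had such a peak at HIF1AN and EGLN1 in control cells, where 16.5% of all genes had one. With iAs it had one at 7 of the 10, namely HIF1A, EPAS1, ARNT, HIF1AN, VHL, EGLN1 and EGLN2, where 42.1% of all genes had one. EGLN3, the only listed gene with Nrf2 at its start site, was thus among the 3 without HIF1α there, together with HIF3A and ARNT2.

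**Figure D2:**
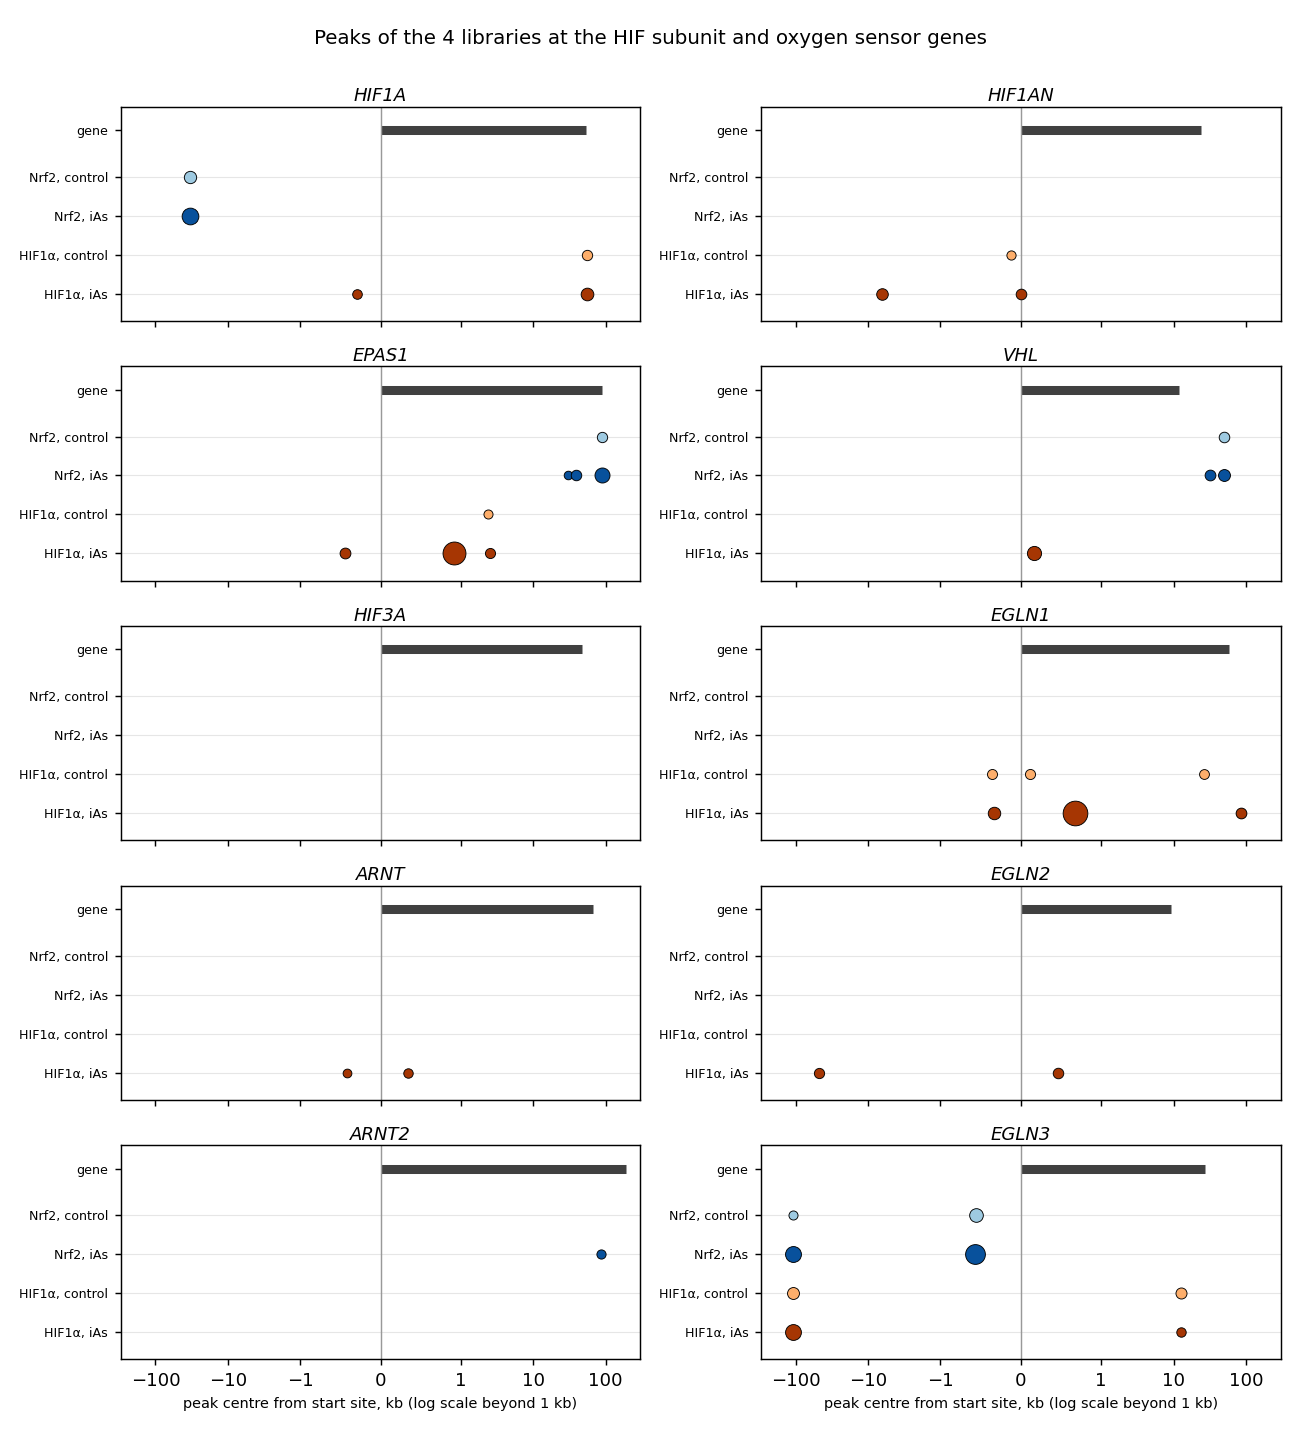
Position of each peak centre relative to the start site of the canonical transcript (x axis, kb, upstream negative, linear within 1 kb and logarithmic beyond) in the 4 libraries (rows) for each of the 10 genes (panels). Circle area is proportional to peak width, from 181 to 1494 bp, and the dark bar is the canonical transcript. The HIF1α circles gather near 0 with iAs at 7 genes, while the Nrf2 circles lie far from 0 at every gene with Nrf2 peaks but EGLN3, where 1 of the positions is close to 0. The 2 iAs peaks beyond the end of EGLN1 lie on top of each other.

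HIF1A encodes the α subunit that the HIF1α antibody targets. Nrf2 had 1 position at the gene, 32.8 kb upstream of its start site and outside any annotated gene. The peak was 373 bp wide without iAs and 686 bp after treatment (chr14:62129128-62129813), and HIF1A had the nearest annotated start site. It carried TGACTCAGC, present in both peaks and read here from the minus strand, and the following 101 bases of hg19 (chr14:62129344-62129444, plus strand) show that element in capitals as its reverse complement.
HIF1A upstream Nrf2 site: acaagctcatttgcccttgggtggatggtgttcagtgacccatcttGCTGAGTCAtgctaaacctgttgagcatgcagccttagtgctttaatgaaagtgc

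HIF1α itself was called at the HIF1A start site only with iAs, in a peak of 228 bp centred 288 bp upstream (chr14:62161830-62162057). It was a narrow peak, wider than 19.2% of the peaks in its list. The peak centre also lay in the body of HIF1A-AS1, a long non-coding RNA gene. The window held ACGTG on both strands, which together spell CACGTG, at −267 bp, and GCGTG as well. The 101 bases round it (chr14:62161914-62162014, plus strand) are shown because they are the stretch at the HIF1A promoter where the HIF1α antibody gave a peak, with CACGTG in capitals.
HIF1A promoter HIF1α site: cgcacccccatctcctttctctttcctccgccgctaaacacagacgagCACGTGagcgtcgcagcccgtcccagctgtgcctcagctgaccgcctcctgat

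A further HIF1α position lay 55.7 kb from the start site, just past the end of the gene. It was 263 bp wide without iAs and 394 bp after treatment. Its centre was 62 bp from the start of HIF1A-AS3, an antisense-named long non-coding RNA gene, and the nearest protein-coding start site was that of SNAPC1, a subunit gene of a small nuclear RNA transcription complex, 11.2 kb away. Nrf2 and HIF1α peaks did not overlap at HIF1A in either condition.

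EPAS1 encodes the α subunit HIF2α. Its Nrf2 peaks went from 1 in control cells to 3 with iAs. The shared position was in exon 16, in the 3′ untranslated region, 89.0 kb from the start site, and was 262 bp wide without iAs and 552 bp after treatment. The start of the long non-coding RNA gene LINC01820 was nearer to it, at 7966 bp. The added Nrf2 peaks lay in intron 1, at 30.4 kb (181 bp, the narrowest width in that list) and 38.3 kb (271 bp). None of the 3 held TGACTCA within 100 bp of its centre. The shared position held no TGANNNNGC in either condition. The peak at 30.4 kb held TGANNNNGC as TGAGCCAGC, in capitals below (chr2:46555010-46555110, plus strand), and the peak at 38.3 kb held it as TGAAAGAGC. The former is shown as an example of an EPAS1 Nrf2 peak that carries the element without TGACTCA.
EPAS1 intron 1 Nrf2 site: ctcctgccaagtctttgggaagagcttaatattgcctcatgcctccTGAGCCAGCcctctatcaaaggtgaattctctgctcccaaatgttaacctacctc

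HIF1α at EPAS1 had 1 peak in control cells, of 202 bp in intron 1 at 2.35 kb. With iAs an overlapping peak of 251 bp stood at 2.51 kb, and peaks of 287 bp (437 bp upstream of the start site) and 1289 bp (0.910 kb downstream) were added. The last of these (chr2:46524812-46526100) was wider than 98.9% of the peaks in its list. The start region of EPAS1 thus went from no HIF1α peak within 1 kb to a pair of them.

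HIF3A, the α subunit gene whose shorter products can act against the others, had its nearest Nrf2 peak 74.7 kb from the gene body in both conditions. The nearest HIF1α peak was 74.7 kb away in control cells and 93.2 kb away with iAs. Over all protein-coding genes the median distance to a HIF1α peak with iAs was 2.90 kb, and 76.0% of genes were as near to one as HIF3A or nearer.

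The β subunit genes differed from each other. ARNT, the common partner of the α subunits, had only HIF1α peaks and only with iAs, one of 219 bp in intron 1, 342 bp downstream of the start site, and one of 188 bp, 418 bp upstream. Neither held ACGTG or GCGTG. The former was wider than 15.9% of the peaks in its list, and 188 bp was the narrowest width there. ARNT2, a related gene best known from neurons, had only a Nrf2 peak and only with iAs, of 208 bp in intron 5, 84.8 kb from the start site (chr15:80781427-80781634). The pattern of ARNT2, with peaks in the Nrf2 list with iAs and no other, was shared by 1.97% of all genes. The pattern of ARNT was shared by 18.5%. That of ARNT2 rested on 1 peak, wider than 14.3% of its list, in a gene of 194 kb. The peak held ACGTG, with 3 matches over both strands within 100 bp of its centre. A CACGTG among them was counted once on each strand. It also held TGACTCA, the core shared with AP-1 sites, but no TGANNNNGC anywhere in its width. TGACTCA is shown in capitals in 101 bases (chr15:80781531-80781631, plus strand), since this is the sole peak of any library at ARNT2.
ARNT2 intron 5 Nrf2 site: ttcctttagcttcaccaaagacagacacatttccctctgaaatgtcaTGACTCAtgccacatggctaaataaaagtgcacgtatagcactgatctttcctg

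HIF1AN, the asparaginyl hydroxylase gene, had its nearest Nrf2 peak 242 kb away in both conditions. HIF1α was called at its start site in both conditions, at 208 bp width without iAs and 278 bp after treatment, the latter centred on the start site itself. Neither peak held ACGTG or GCGTG within 100 bp of its centre. An added iAs peak of 330 bp at −6.35 kb was 280 bp from the start site of NDUFB8, a subunit gene of mitochondrial complex I. It lies in the HIF1AN gene record through a longer transcript, upstream of the canonical one.

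VHL, which recognises hydroxylated α subunits, had a HIF1α peak of 492 bp over coding exon 1 with iAs (chr3:10183386-10183877), centred 169 bp downstream of the start site, and none in control cells. Its Nrf2 peaks lay far downstream. One position at 50.4 kb was 274 bp wide without iAs and 348 bp after treatment, and another at 32.2 kb (284 bp) was called with iAs only. Both lay in the body of IRAK2, an interleukin-1 receptor associated kinase gene whose start site was nearer, at 27.3 and 9.09 kb. The shared position held TGACTCA, read from the minus strand, and TGAGTCAGC across the same bases, and the capitals below mark the 7 letters (chr3:10233877-10233977, plus strand).
VHL downstream Nrf2 site: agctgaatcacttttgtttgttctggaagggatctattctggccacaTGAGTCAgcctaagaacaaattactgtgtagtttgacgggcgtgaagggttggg

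The prolyl hydroxylase genes fell into different patterns. EGLN1 (PHD2), the main oxygen sensor in most cells, had 3 HIF1α peaks without iAs and 4 after treatment, and its nearest Nrf2 peak was 106 kb away in both conditions. A control peak of 251 bp, 113 bp downstream of the start site, was overlapped with iAs by one of 1494 bp (chr1:231556611-231558104), which was 5.95 times as wide and wider than 99.5% of its list. A neighbour upstream widened from 246 to 382 bp. The bases of this upstream peak from chr1:231558273-231558373 are printed on the minus strand, that of the gene, since the peak was called in both conditions, with GCGTG in capitals as its reverse complement, 290 bp from the start site.
EGLN1 promoter HIF1α site: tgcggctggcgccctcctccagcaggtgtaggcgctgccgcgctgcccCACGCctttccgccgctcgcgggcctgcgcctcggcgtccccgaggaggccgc

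EGLN1 was also the one listed gene with a HIF1α peak in control cells that no iAs peak overlapped, 237 bp wide in intron 1 at 26.6 kb. In all, 19.9% of genes lay within 50 kb of such a control-only HIF1α peak, and 1.55% within 50 kb of a control-only Nrf2 peak, of which the listed genes had 0. The remaining iAs peaks assigned to EGLN1 (284 and 211 bp) stood 124 and 466 bp from the start site of EXOC8, an exocyst subunit gene. Both also lay in the gene record of SPRTN, another protein-coding gene, whose start was 282 bp from the peak of 211 bp.

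EGLN2 (PHD1) had HIF1α peaks with iAs only. One of 272 bp in intron 1, 465 bp from the start site (chr19:41305426-41305697), held GCGTG at 2 places. The other, 258 bp wide at −48.2 kb, stood 211 bp from the start site of SNRPA, a spliceosome protein gene. The nearest Nrf2 peak was 108 kb away in control cells and 80.7 kb away with iAs.

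EGLN3 (PHD3), a strongly hypoxia-inducible gene in many cells, was the only listed gene with peaks in all 4 libraries at 1 position and the only one with Nrf2 at its start site. The Nrf2 peak upstream of its start site was 458 bp wide in control cells, centred 558 bp away, and 960 bp wide with iAs, centred 566 bp away (chr14:34420367-34421326), wider than 92.7% of its list. It held TGACTCAGC 586 bp upstream of the start site. The 101 bases round this element are given on the minus strand, that of the gene (chr14:34420816-34420916), with the element in capitals, because it is the single antioxidant response element of this form within 1 kb of a start site among these Nrf2 peaks.
EGLN3 upstream Nrf2 site: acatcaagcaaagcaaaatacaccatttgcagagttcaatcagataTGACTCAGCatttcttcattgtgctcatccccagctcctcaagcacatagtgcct

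The position shared by both factors lay 109 kb upstream of the canonical start site, inside the gene record only because that record includes a long upstream transcript (539 kb against 26.8 kb for the canonical transcript). Its Nrf2 peak was 202 bp wide without iAs and 620 bp after treatment. Its HIF1α peak measured 349 bp without iAs and 615 bp after treatment (chr14:34529204-34529818). EGLN3 was the 1 listed gene with overlapping Nrf2 and HIF1α peaks, without iAs (7.83% of all genes had such a pair) and after treatment (12.6%). Peaks in all 4 libraries were found at 1.59% of the 21088 merged regions. The Nrf2 peaks here had a GC content of 76.2% (control) and 71.0% (iAs), against a median of 46.3% and 47.2% over all Nrf2 peaks. The bases of chr14:34529465-34529565 (minus strand) are shown with TGACTCA in capitals, and an ACGTG stands downstream of it in the same stretch. Both elements lie in the HIF1α peaks of both conditions and in the Nrf2 peak with iAs, and outside the narrower Nrf2 peak of control cells. The nearest annotated gene start, 20231 bp away, was that of the long non-coding RNA gene EGLN3-AS1.
EGLN3 distal shared site: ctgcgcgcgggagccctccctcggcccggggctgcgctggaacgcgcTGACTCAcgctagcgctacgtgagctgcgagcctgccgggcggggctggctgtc

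The last EGLN3 position was a HIF1α peak in intron 1, 12.5 kb from the start site, of 299 bp without iAs and 218 bp after treatment (chr14:34407612-34407829). It was the only listed position called in both conditions that was narrower with iAs. Its window held ACGTG, in capitals as the reverse complement below (chr14:34407648-34407748, minus strand), and GCGTG next to it, so it is printed as the HIF1α position inside the body of a well-known HIF target.
EGLN3 intron 1 HIF1α site: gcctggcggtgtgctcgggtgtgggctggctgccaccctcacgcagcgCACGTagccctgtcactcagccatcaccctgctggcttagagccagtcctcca

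Across the list, every control peak but the intronic one of EGLN1 had a counterpart with iAs, and most counterparts were wider. All 5 Nrf2 control peaks were overlapped by a wider iAs peak, as were 92.2% of all overlapped Nrf2 control peaks, with width ratios from 1.27 (VHL) to 3.07 (EGLN3, distal) and a median of 1.67 over all such peaks. Of the 7 HIF1α control peaks that an iAs peak overlapped, 6 were overlapped by a wider one, against 77.4% of all. Their ratios ran from 0.729 (EGLN3, intron 1) to 5.95 (EGLN1), against a median of 1.48 over all. Of all overlapped HIF1α control peaks, 1.21% had a ratio as large as that of EGLN1 or larger, and of all overlapped Nrf2 control peaks, 10.3% had one as large as that of the distal EGLN3 position or larger.

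**Figure D3:**
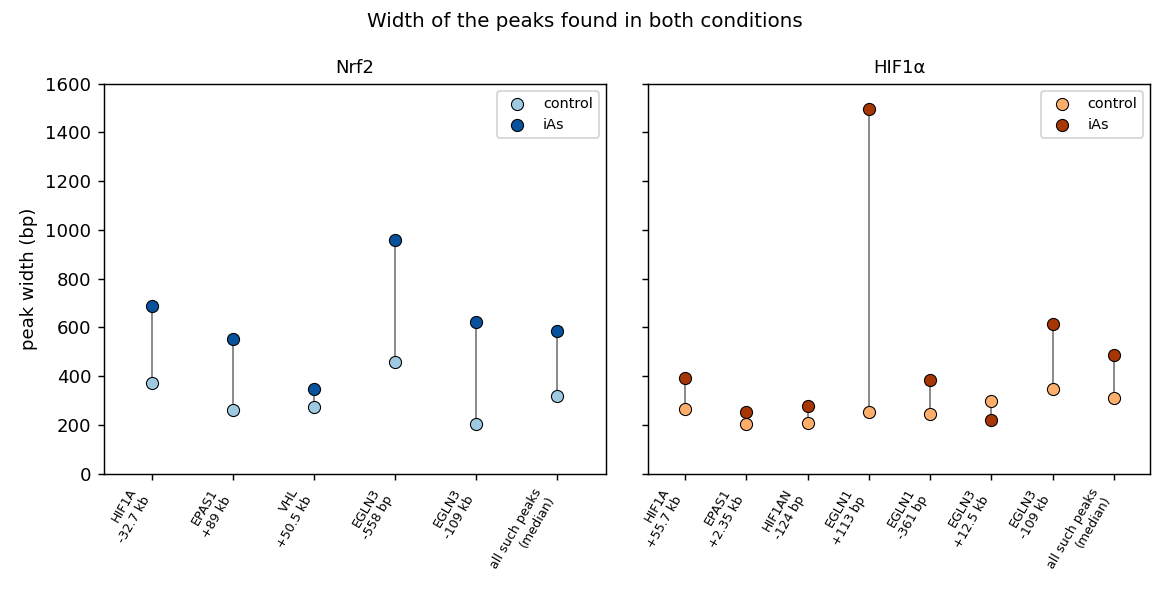
Peak width in bp (y axis) in control cells (light) and with iAs (dark) at each position called in both conditions, for Nrf2 (left) and HIF1α (right), labelled by gene and by the distance of the control peak from the start site. The last pair in each panel gives the medians over all peaks overlapped in both conditions. Every line runs upward from control to iAs except EGLN3 at 12.5 kb, and the line of EGLN1 near its start site, from 251 to 1494 bp, is the longest.

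The iAs peaks with no control counterpart were 4 of 9 for Nrf2, against 62.0% of all Nrf2 peaks with iAs, and 11 of 18 for HIF1α, against 75.2%. Genes within 50 kb of such a peak were EPAS1, ARNT2 and VHL for Nrf2, which is 3 of 10 where 25.4% of all genes were, and 7 of 10 for HIF1α (HIF1A, EPAS1, ARNT, HIF1AN, VHL, EGLN1 and EGLN2), where 59.6% were. Of the 27 positions, 11 were called in the HIF1α list with iAs alone (43.6% of all merged regions), 6 in both HIF1α lists (11.5%), 4 in the Nrf2 list with iAs alone (16.7%) and 4 in both Nrf2 lists (9.24%). Of the 18 HIF1α peaks with iAs, 10 were within 1 kb of the start site of the listed gene and 4 within 1 kb of that of a neighbour.

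The binding letters were counted within 100 bp of each peak centre, on both strands. TGACTCA is contained in TGACTCAGC, and TGACTCAGC is one case of TGANNNNGC. Of the 9 Nrf2 peaks with iAs, 2 held TGACTCAGC (15.6% of all Nrf2 peaks with iAs), 5 held TGACTCA (38.3%) and 6 held TGANNNNGC (55.9%). Of the 18 HIF1α peaks with iAs, 6 held ACGTG (19.6% of all) and 9 held GCGTG (41.3%). ACGTG stood in 2 of the 9 Nrf2 peaks with iAs (12.4% of all Nrf2 peaks with iAs) and GCGTG in 3 (16.3%). The median GC content of the listed HIF1α peaks with iAs was 66.7% and that of the Nrf2 peaks 50.7%, and the part of base composition in these letter counts was not tested.

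**Figure D4:**
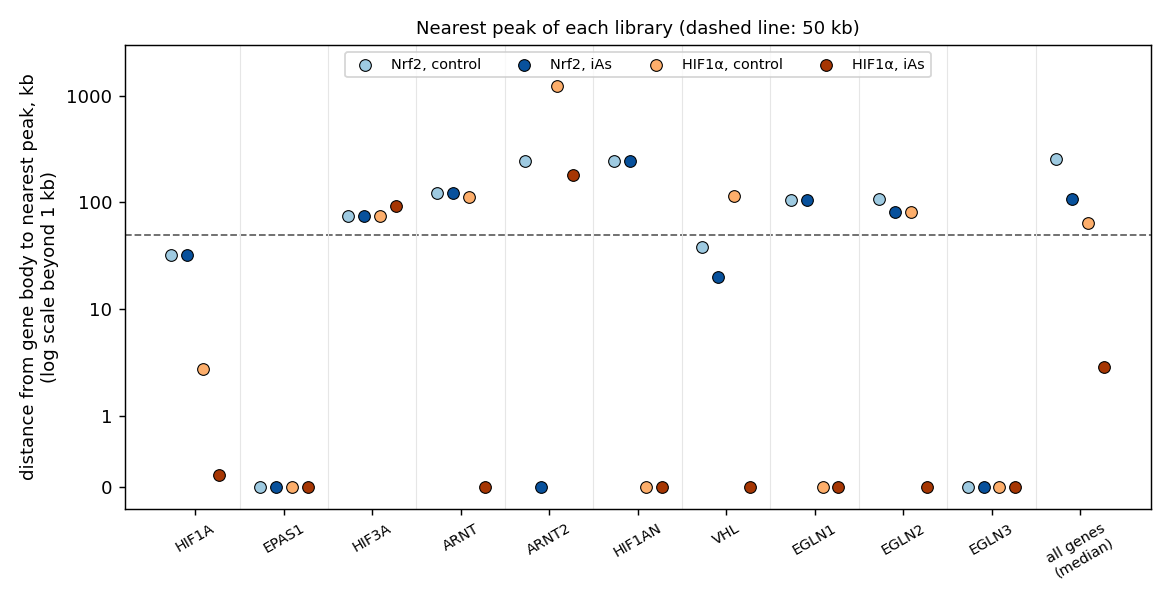
Distance in kb from the gene body to the nearest peak of each of the 4 libraries (y axis, linear below 1 kb and logarithmic beyond; 0 means a peak overlaps the gene body) for the 10 genes and, at the right, the median over all protein-coding genes (x axis). EPAS1 and EGLN3 lie at 0 in every library, HIF3A lies above the dashed 50 kb line in every library, and the nearest HIF1α peak to ARNT2 in control cells is 1234 kb away. The Nrf2 peaks of EGLN3 lie in its gene body only through the long upstream transcript.

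The genes that act beside these were taken as 5 lists of 29 genes in all. With iAs, HIF1α had a peak within 1 kb of the start site of 25 of the 29, where 42.1% of all genes had one, against 9 in control cells, where 16.5% did. Nrf2 had one at 2 of them with iAs (4.91% of all genes) and at 1 in control cells (2.23%). The HIF1α lists differ in length (6008 peaks in control cells, 12826 with iAs). The counts of these 29 genes were neither tested nor repeated under other settings. All 4 partners of VHL in its ubiquitin ligase (ELOB, ELOC, CUL2 and RBX1) had a HIF1α peak at the start site with iAs, against 3 in control cells. The coactivators and transactivation inhibitors (EP300, CREBBP, CITED2 and CITED4) went from 1 to 4 of 4, other bHLH-PAS proteins, the family of ARNT, from 2 to 7 of 10, other enzymes and binding proteins that act on HIF or its hydroxylases from 1 to 7 of 8, and the collagen prolyl hydroxylases, relatives that do not act on HIF, from 2 to 3 of 3. The last list was included for comparison. It held 3 genes, 2 of them with such a peak already in control cells, which is too few to set against the HIF genes.

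Nrf2 and HIF1α both had iAs peaks within 10 kb of the gene record of 10 of these 29 genes, where 14.9% of all genes had them. Of the HIF subunit and oxygen sensor genes, EPAS1 and EGLN3 did. A gene record can reach far upstream of the canonical start site, so the peaks counted need not lie near it or each other. At AHR, the Nrf2 peaks with iAs stood at −255610 and −203396 bp and the HIF1α peak at 382 bp. At P4HA2, the Nrf2 peak with iAs stood at −67425 bp, with a HIF1α peak near it at −67096 bp that did not overlap it. A HIF1α peak of control cells, at −67447 bp, did overlap that Nrf2 position. CITED2, which competes with HIF for its coactivators, had a Nrf2 peak with iAs only, 272 bp wide at −676 bp, and HIF1α peaks of 557 and 290 bp without iAs and of 1186 bp after treatment round the start site. MDM2, a ubiquitin ligase best known for p53, had Nrf2 peaks at its start region in both conditions (288 bp wide without iAs, 405 and 364 bp wide after treatment) and HIF1α peaks in both (201 and 278 bp wide without iAs, 491 bp wide after treatment). These were the only 2 of the 29 with Nrf2 within 1 kb of the start site with iAs.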

How the data were processed

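Peaks of 4 ChIP-seq libraries (Nrf2 and HIF1α, control and iAs) were read as deposited: start and end positions on hg19, a unit of base positions with no height, score or p-value. According to the submitters' processing notes the authors aligned reads with BWA and called peaks with MACS2 2.1.0. The study's methods name MACS or SICER, and down-sampling of tags within a group to the smallest sample, which can change how many peaks are called. The antibody suppliers differ between labels (Santa Cruz, Abcam) and methods (Active Motif). A list of 21088 regions merged by the authors was set beside the peaks. The 1 input library has no peak list and was not analysed here.

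The listed genes and lists were chosen with earlier results of these data known. All peaks of the 10 genes are reported. Of the other lists, genes with peaks of both factors with iAs within 10 kb could be named singly, and a neighbour was named where its protein-coding start site was nearer than that of the listed gene (some non-coding neighbours are named too). Genes were the protein-coding records of GENCODE release 44 lifted to hg19, and start sites those of canonical transcripts. Peaks overlapped when they shared 1 bp. Positions were taken at peak centres, and letters counted in windows of 201 bp. Sequences were read from hg19. Counting was tested on simulated data and recounted with bedtools 2.31.1 (Python 3.11.15). With 1 library per group no test was run, and replicates could not be compared. Alternatives were another distance, overlap, width or motif window.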

Additional observations from a re-analysis of the deposited data

How the results depend on the processing

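Of 60 recounts under other settings, 44 stayed within 1.5 times the reported count. Each count below is followed by the share over all genes or peaks under the same setting. Within 10 kb, 2 (Nrf2, control; 10.6%) and 3 (Nrf2, iAs; 19.6%) genes had a peak, and in the gene body alone also 2 (7.59%) and 3 (14.4%). EGLN3 counted for Nrf2 in the gene body only through its long upstream transcript. With the wider 50% of the peaks, 2 (Nrf2, control; 12.2%), 1 (HIF1α, control; 29.9%) and 5 (HIF1α, iAs; 52.6%) genes had one, 0 (HIF1α, control; 9.71%) and 3 (HIF1α, iAs; 26.9%) had one at the start site, and 5 HIF1α peaks with iAs (76.4%) had no control counterpart. With the 3204 widest peaks of each list, 3 (Nrf2, iAs; 20.4%), 1 (HIF1α, control; 31.5%) and 3 (HIF1α, iAs; 33.9%) genes had a peak. With a reciprocal overlap of 50%, 7 of the 9 Nrf2 peaks with iAs (74.9%) had no control counterpart. With the canonical transcript in place of the gene record, a choice made after seeing the data, 0 Nrf2 peaks overlapped a HIF1α peak in control cells and 0 with iAs, since the distal EGLN3 position then lay outside.

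No paired analysis was possible because each antibody and condition had 1 library and no test was run. For the same reason no replicate was left out. The read depth is unknown, so a peak absent from a list was not called, which does not show that the factor was absent. Peak width depends on the caller and on depth, and no heights were available to set beside it.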
